A study of Homo sapiens with 22 samples.

Results

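Day 12 was the first day on which blood progenitor cultures were sequenced both with and without ectopic MYC. The comparison rests on 4 of the 22 libraries of the series, 2 labelled DOX on day 12 and 2 labelled UT on day 12, taken by arm and day from the labels and set against each other across all genes. The cells were haematopoietic progenitors grown in culture from human embryonic stem cells of the established line H1. In the DOX arm doxycycline switched on an ectopic copy of MYC, and the UT arm was left without doxycycline. The titles give 1 line name throughout, and all libraries belong to batch 1. None had doxycycline without ectopic MYC, so effects of the drug and of MYC cannot be told apart. The day on which doxycycline was added is not given in the sources used here. PolyA-selected RNA was taken from 200000 cells per extraction. Nothing in the labels says that replicates came from different cultures. The p-values of the main fit therefore rest on the spread between replicates over all 22 libraries, and that variation may be technical.

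MYC is a transcription factor that binds DNA as a dimer with MAX, most strongly at the E-box CACGTG. It is known for raising genes of ribosome production, nucleotide synthesis and metabolism, and for holding immature blood cells back from maturing. In the bone marrow such progenitors mature into red cells, platelet-forming megakaryocytes, neutrophils, monocytes, eosinophils and mast cells, each with its own stored proteins and receptors. Excess MYC in progenitors is a common feature of leukaemia.

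On day 12 DOX differed from UT by a small upward shift across growth genes and by larger falls among genes of maturing myeloid cells. Of 20115 genes tested, 625 (3.11%) differed between DOX and UT at an adjusted p under 0.05 (Benjamini-Hochberg over all genes, edgeR quasi-likelihood test). DOX was higher for 170 genes (0.845%) and lower for 455 (2.26%). Here and below, rose and fell mean higher and lower in DOX than in UT on day 12, not a change since day 10. For all 625 the DOX and UT libraries did not overlap, so a lack of overlap adds nothing to a call. At least 2-fold differences were fewer, 255 in all (1.27%), with 36 higher (0.179%) and 219 lower (1.09%). The median difference over all genes tested was 0.03 on the log2 scale. Among 12170 genes with a mean log2 CPM (counts scaled to the effective library size, with TMM factors) of at least 1, the replicates lay 2-fold or more apart for 15 genes in DOX and 23 genes in UT, against 268 to 422 genes for a DOX library set against a UT library.

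The count of calls differed with the libraries that entered the fit. These counts come from a single fit of all 22 libraries, in which later days with wider replicate spread also enter (common biological coefficient of variation 0.184). With the 4 libraries of day 12 alone that coefficient was 0.0749, the filter and scaling were set anew, and 4742 of 17845 genes (26.6%) were called, 2230 higher (12.5%) and 2512 lower (14.1%), including 623 of the 625. For gene lists the counts from this second fit, which has 2 residual degrees of freedom, are given beside those of the first. List counts are set beside the shares of all tested genes, 0.845% higher and 2.26% lower in the first fit. In the second fit those shares were 12.5% higher and 14.1% lower. The lists and their members were chosen with earlier results of these data known, so such shares give a scale and no test of a list. This holds also for the shares of genes whose libraries did not overlap. With the 10 libraries of days 10 to 14, a fit added after the data were seen, 5.1% of genes were called higher and 6.82% lower. With 1 library left out the fit of all days called 140 genes without DOX replicate 1, 56 without DOX replicate 2, 72 without UT replicate 1 and 217 without UT replicate 2, and 95 of the 116 called genes given with a fold change below lost their call at least once, with none changing sign. Without composition scaling the share of calls that were higher was 13.3%, against 27.2% with it.

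Depth was 44251374 and 53508590 estimated counts in the DOX libraries and 33723570 and 40664541 in the UT libraries. Mitochondrially encoded RNA made up 11.3% ± 1.28 of counts in DOX and 10.6% ± 0.441 in UT (SD, n = 2 each), a difference of 0.753 percentage points (exact two-sided permutation test, p = 0.667, where 6 arrangements allow no p below 0.333). The progenitor label was checked against 12 marker genes. CD34, a stem and progenitor surface protein, stood at 84.8 and 80.0 CPM in DOX and 83.6 and 86.0 in UT, and SPN (CD43) at 567 and 628 in DOX and 598 and 635 in UT, with neither called. PTPRC (CD45) was lower in DOX, at 21.9 and 18.9 CPM against 45.7 and 36.5 CPM in UT (2.01-fold, log2 fold change -1.01, SE 0.18, adjusted p = 0.0048), and the other 9 markers were detected without a call. The pluripotency genes POU5F1, NANOG and SOX2 had 14, 6 and 0 counts in the 4 libraries together. In bulk RNA fewer cells of a type and less RNA per cell cannot be told apart, and this holds for every marker gene below.

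**Figure D1:**
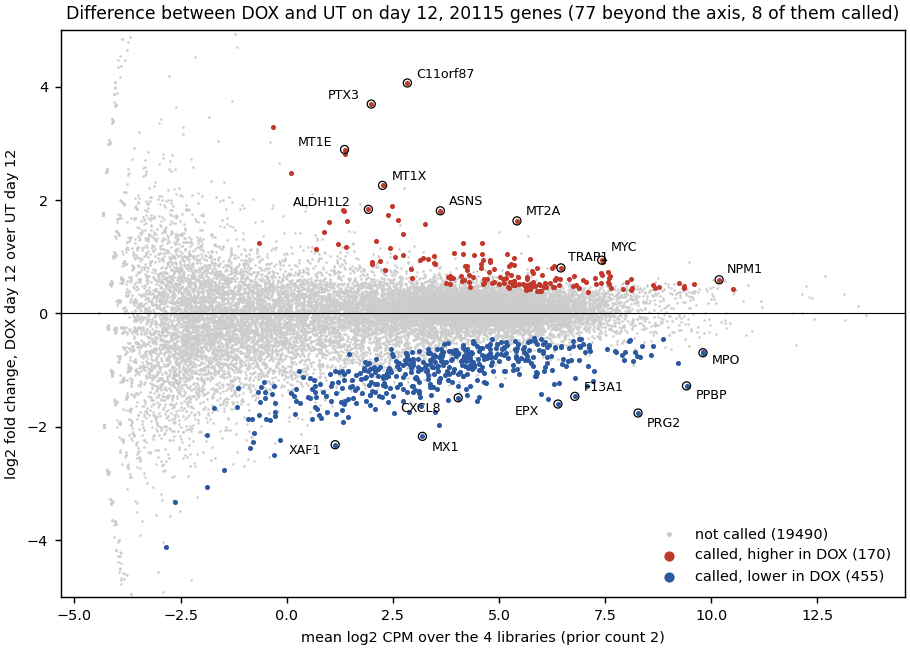
Log2 fold change of DOX over UT on day 12 (vertical axis) against mean log2 CPM over the 4 libraries (horizontal axis) for 20115 genes, with red for the 170 called higher, blue for the 455 called lower and grey for the rest. The genes called lower reach further from 0 than those called higher, apart from a few far-raised genes such as C11orf87 and PTX3. Beyond the axis limit of 5 lie 77 genes, 8 of them called.

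The E-box that MYC and MAX bind was sought in RefSeq promoter windows (GRCh38.p14, 250 bases before to 50 after the gene start). CACGTG stood in 22 of the 133 windows found for genes called higher (16.5%), in 21 of 320 for genes called lower (6.56%) and in 1204 of 12463 for all genes tested (9.66%). Among genes called at least 2-fold higher it stood in 2 of 23 windows (8.7%). The related CACGCG, counted on both strands, stood in 29.3% of windows of genes called higher, 11.2% of genes called lower and 17.3% of all genes tested. These are counts of letters and say nothing of binding. The 4 windows below belong to raised growth-metabolism genes, picked by a rule on fold change, and are shown because they hold the motif. Of 23 candidates 18 had a window, and 14 of those windows, such as those of ASNS, PSAT1, TRAP1 and NPM1, held no CACGTG. The motif is in capitals, 5′ to 3′ on the strand of the gene.
LDHA (chr11:18394313-18394612, plus strand): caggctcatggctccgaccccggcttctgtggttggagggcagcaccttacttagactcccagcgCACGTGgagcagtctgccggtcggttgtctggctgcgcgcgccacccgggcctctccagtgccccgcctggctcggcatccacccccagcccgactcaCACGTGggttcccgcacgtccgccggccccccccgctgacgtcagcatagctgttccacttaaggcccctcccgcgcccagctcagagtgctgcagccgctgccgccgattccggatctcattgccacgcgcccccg
PPAT (chr4:56435566-56435865, minus strand): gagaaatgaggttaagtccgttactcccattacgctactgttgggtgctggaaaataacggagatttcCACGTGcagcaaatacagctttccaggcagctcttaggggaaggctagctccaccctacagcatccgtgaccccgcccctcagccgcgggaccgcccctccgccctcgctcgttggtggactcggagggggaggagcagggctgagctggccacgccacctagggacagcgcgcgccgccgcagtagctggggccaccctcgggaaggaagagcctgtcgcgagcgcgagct
ATIC (chr2:215311809-215312108, plus strand): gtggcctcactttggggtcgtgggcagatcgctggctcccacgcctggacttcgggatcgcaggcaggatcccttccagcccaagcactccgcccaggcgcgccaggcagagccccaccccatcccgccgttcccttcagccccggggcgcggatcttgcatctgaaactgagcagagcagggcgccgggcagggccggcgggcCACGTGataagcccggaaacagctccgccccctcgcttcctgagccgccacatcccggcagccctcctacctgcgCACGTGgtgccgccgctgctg
MTHFD1L (chr6:150866236-150866535, plus strand): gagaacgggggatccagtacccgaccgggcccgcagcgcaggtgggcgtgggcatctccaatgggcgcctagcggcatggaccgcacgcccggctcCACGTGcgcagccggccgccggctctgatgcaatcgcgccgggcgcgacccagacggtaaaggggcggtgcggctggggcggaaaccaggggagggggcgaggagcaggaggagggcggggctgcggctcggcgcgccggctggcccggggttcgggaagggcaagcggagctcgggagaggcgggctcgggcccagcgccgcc
LDHA, which turns pyruvate into lactate, held 2 copies, whose first bases lay 185 and 87 bases before the start. ATIC, which closes the purine ring, also held 2, and PPAT, the entry enzyme of purine synthesis, and MTHFD1L, a mitochondrial folate enzyme, held 1 each. Their log2 fold changes in DOX were 0.52 for LDHA, 0.57 for PPAT, 0.52 for ATIC and 0.62 for MTHFD1L.

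MYC itself (ENSG00000136997.21, chromosome 8, 127735434 to 127741434, GRCh38) was read at 242 and 232 CPM in DOX and at 126 and 121 CPM in UT. That is 1.92-fold higher in DOX (log2 fold change 0.94, SE 0.24, adjusted p = 0.041). As for every called gene, the arms did not overlap. Gene-level counts do not separate the ectopic copy from the gene at its own locus. The call was close to the threshold: with any 1 of the 4 libraries left out the difference stayed between 0.91 and 0.98 but the adjusted p was at least 0.228. Its partner MAX was lower in DOX, at 231 and 232 CPM against 320 and 317 CPM in UT (1.38-fold, adjusted p = 0.026). MXD1, a MAX partner that represses E-box genes, was also lower, at 38.5 and 38.6 CPM in DOX against 71.1 and 65.5 CPM in UT (1.77-fold, adjusted p = 0.035). MYCN, the paralogue of MYC, was read at 15.1 and 17.9 CPM in DOX and 29.5 and 30.1 CPM in UT without a call (log2 fold change -0.85, adjusted p = 0.084). Of the 13 tested members of the network MYC, MAX and MXD1 were the 3 calls, 1 higher and 2 lower. The fit of the 4 libraries alone called 3 higher and 3 lower of 12. In UT on day 10 MAX was read at 186 and 178 CPM and MXD1 at 26.5 and 23.7 CPM, both below DOX day 12. MYC was read at 157 and 142 CPM and MYCN at 37.8 and 36.5 CPM in UT on day 10.

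A pair of genes rose far more than any other named gene. C11orf87 (chromosome 11, 109422120 to 109429114), a gene of little known function, was read at 31.5 and 27.1 CPM in DOX and at 1.45 and 2.01 CPM in UT, 16.8-fold higher (log2 fold change 4.07, SE 0.34, adjusted p = 1e-05). PTX3 (chromosome 3, 157436789 to 157443628), the long pentraxin, a secreted pattern-recognition protein, was read at 15.5 and 12.9 CPM in DOX and at 1.36 and 0.838 CPM in UT, 13-fold higher (log2 fold change 3.70, SE 0.42, adjusted p = 0.00014). On UT day 10 the libraries stood at 0.597 and 0.521 CPM for C11orf87 and 0.388 and 0.328 CPM for PTX3. Other genes among the 12 largest rises at a mean log2 CPM of at least 1 were SLITRK5, a neuronal membrane protein, at 4.88 and 4.39 CPM in DOX and 1.13 and 1.48 CPM in UT, and SIPA1L2, at 9.84 and 8.99 CPM in DOX and 2.81 and 2.84 CPM in UT. GSTA1, a glutathione transferase, was read at 4.11 and 5.48 CPM in DOX and 1.02 and 1.71 CPM in UT. SLITRK5, SIPA1L2 and GSTA1 were 3.53-fold, 3.33-fold and 3.51-fold higher in DOX. UT day 10 stood at 3.9 and 3.47 CPM for SLITRK5, 3 and 2.16 CPM for SIPA1L2 and 3.24 and 4.3 CPM for GSTA1. For SLITRK5 and GSTA1 UT day 12 lay below UT day 10, and for GSTA1 DOX day 12 overlapped UT day 10.

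Metallothioneins, small proteins that bind zinc and other metals, supplied 3 of the 12 largest rises, and SLC30A10, a manganese and zinc exporter, a further one. MT2A was read at 56.6 and 99.0 CPM in DOX and 20.0 and 30.1 CPM in UT (3.11-fold, adjusted p = 0.016). MT1X was read at 7.75 and 14.3 CPM in DOX and 1.41 and 3.16 CPM in UT (4.79-fold, adjusted p = 0.0043). MT1E was read at 4.43 and 10.4 CPM in DOX and 0.622 and 1.35 CPM in UT (7.44-fold, adjusted p = 0.024). In each arm the library called replicate 2 was the higher one for all 3 genes, and the arms did not overlap, as for every called gene. With 1 library left out the log2 fold change ran between 2.16 and 3.57 for MT1E and between 1.76 and 2.97 for MT1X, lowest without DOX replicate 2 and highest without UT replicate 2, and the adjusted p reached 0.365 for MT1E and 0.139 for MT1X. SLC30A10 was read at 4.13 and 5.36 CPM in DOX and 1.13 and 1.93 CPM in UT (3.09-fold, adjusted p = 0.027). UT day 10 stood at 3.63 and 3.65 CPM for SLC30A10, above UT day 12. For MT2A, MT1X and MT1E it stood at 23.2 and 22.5 CPM, 2.3 and 2.61 CPM, and 1.57 and 2.01 CPM. The MT1 genes lie side by side on chromosome 16 and are near-identical in sequence, so the split of reads between them is uncertain.

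**Figure D2:**
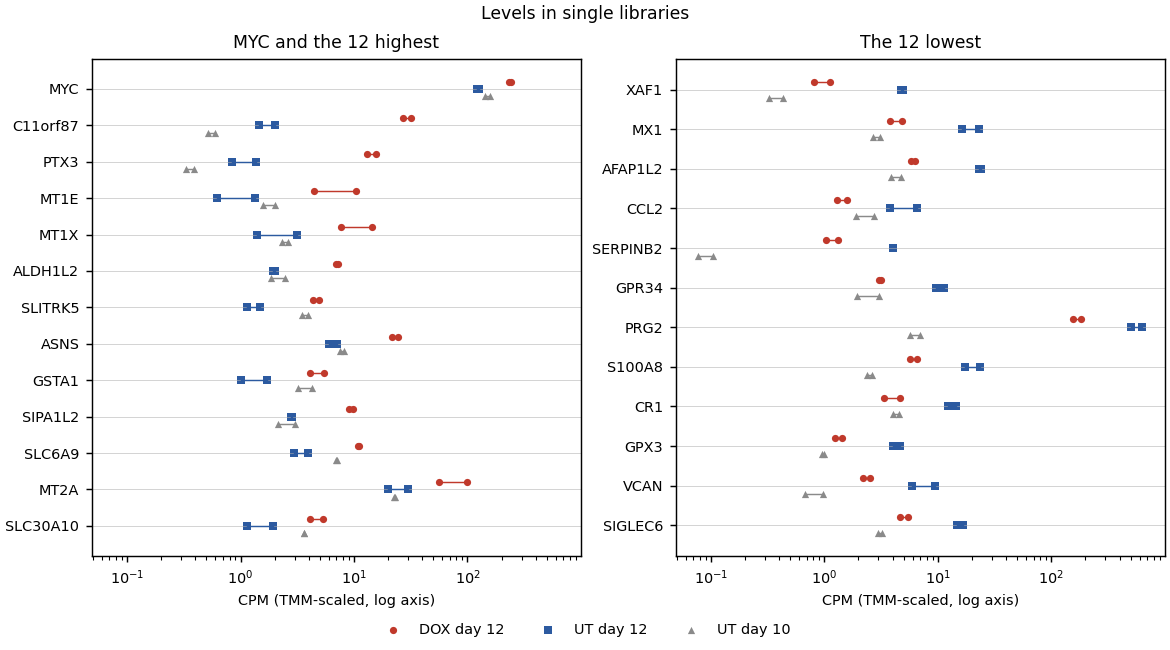
Level in CPM (log axis) in each library of DOX day 12 (red circles), UT day 12 (blue squares) and UT day 10 (grey triangles) for MYC with the 12 highest and the 12 lowest named genes, with a line joining the 2 replicates. DOX and UT day 12 libraries do not overlap for any gene shown, as for every called gene. MT1E and MT1X have replicates far apart within each day 12 arm.

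Enzymes that make serine, glycine and asparagine and feed one-carbon units to purine synthesis rose in DOX, several of them known targets of ATF4, the factor of the amino acid response. ASNS, asparagine synthetase, was read at 21.6 and 24.4 CPM in DOX and 6.00 and 7.07 CPM in UT (3.51-fold, log2 fold change 1.81, SE 0.25, adjusted p = 0.00063). ALDH1L2, a mitochondrial folate enzyme, was read at 7.21 and 6.95 CPM in DOX and 1.92 and 2.03 CPM in UT (3.58-fold, log2 fold change 1.84, SE 0.28, adjusted p = 0.0016). PSAT1, which makes phosphoserine, was read at 38.3 and 31.6 CPM in DOX and 17.1 and 16.8 CPM in UT (2.06-fold, adjusted p = 0.0037). As for every called gene, the arms did not overlap for these 3 enzymes. Of 16 serine and one-carbon enzymes tested 5 were called higher and none lower, with a median log2 difference of 0.38, and the fit of the 4 libraries alone called 10 higher and 1 lower. MTHFD2 and MTHFD1L, mitochondrial folate enzymes, rose 1.54-fold and 1.53-fold.

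The ATF4 list as a whole was mixed. Of 24 tested members 3 rose and 1 fell, with 15 positive differences (12 higher and 3 lower of 23 in the fit of the 4 libraries alone). STC2, a secreted glycoprotein, was read at 11.1 and 10.5 CPM in DOX and 3.92 and 4.22 CPM in UT (2.65-fold, adjusted p = 0.019), and PCK2, the mitochondrial PEP carboxykinase, rose 1.53-fold. The member that fell was CEBPB, a myeloid factor also known from the stress response, at 8.54 and 7.36 CPM in DOX and 14.8 and 11 CPM in UT (1.62-fold, adjusted p = 0.028). ATF4 mRNA was not called, at 242 and 249 CPM in DOX and 216 and 209 CPM in UT. Of 22 amino acid transporters 3 rose and none fell, against 7 higher and 6 lower in the fit of the 4 libraries alone. These were SLC6A9, the glycine transporter, at 10.9 and 11 CPM in DOX and 3.94 and 2.98 CPM in UT (3.15-fold, adjusted p = 0.0038), SLC38A5 (1.75-fold) and SLC1A5, the main neutral amino acid exchanger (1.53-fold). Arginine and polyamine metabolism gave 1 rise and 2 falls among 18 genes (4 higher and 4 lower of 17 in the fit of the 4 libraries alone). ASS1, argininosuccinate synthase, rose 2.44-fold, while the polyamine-degrading enzymes SAT1 and SMOX were lower in DOX. SAT1 was read at 97.9 and 97.9 CPM in DOX and 226 and 221 CPM in UT (2.28-fold lower, adjusted p = 0.00063). In UT on day 10 SAT1 was read at 75.7 and 64.1 CPM.

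Growth genes were shifted upwards by small amounts. In the list of 30 growth genes known as MYC targets, both DOX libraries lay above both UT libraries for all 30, where 33.5% of all tested genes did so. The median log2 difference was 0.42, with 7 called higher and 22 in the fit of the 4 libraries alone. TRAP1, a mitochondrial chaperone, was read at 120 and 113 CPM in DOX and 65.6 and 67.5 CPM in UT (1.75-fold, log2 fold change 0.80, SE 0.10, adjusted p = 0.00037). NPM1, the nucleolar protein nucleophosmin, was read at 1450 and 1420 CPM in DOX and 938 and 957 CPM in UT (1.51-fold, adjusted p = 0.045). NOLC1, a nucleolar chaperone, and LDHA rose 1.44-fold and 1.43-fold. Summed over the 30 genes the level was 6870 and 6705 CPM in DOX, against 4824 and 4907 CPM in UT and 5911 and 6408 CPM in UT on day 10.

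Ribosome production was part of this. Of 40 ribosome biogenesis factors 6 were called higher (34 in the fit of the 4 libraries alone), none lower, and all 40 differences were positive (median 0.45). NOB1, the nuclease that trims 18S ribosomal RNA, led them, at 53.8 and 50.5 CPM in DOX and 28.3 and 28.9 CPM in UT (1.82-fold, log2 fold change 0.87, SE 0.11, adjusted p = 0.00044). WDR12, IMP4 and HEATR1, factors of ribosomal RNA processing and transcription, rose 1.48-fold, 1.46-fold and 1.45-fold. POLR3D, a subunit of RNA polymerase III, was read at 37.6 and 39.3 CPM in DOX and 22.1 and 22.3 CPM in UT (1.73-fold, adjusted p = 0.01), the only call among 26 polymerase I and III genes (11 higher in the fit of the 4 libraries alone). All 41 cytosolic ribosomal protein genes had both DOX libraries above both UT libraries, where 33.5% of all tested genes did so. Their log2 differences were centred on 0.38. Of the 41, 3 were called, RPL22, RPL37 and RPL14 at 1.52-fold, 1.41-fold and 1.39-fold (41 in the fit of the 4 libraries alone).

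Genes that supply the ribosome were also higher. Of 20 cytosolic aminoacyl-tRNA synthetases, which load amino acids on tRNA, 5 rose and none fell (19 in the fit of the 4 libraries alone). IARS1, the isoleucine enzyme, was read at 221 and 218 CPM in DOX and 137 and 136 CPM in UT (1.61-fold, log2 fold change 0.69, SE 0.10, adjusted p = 0.00082). GARS1, LARS1 and VARS1 rose 1.5-fold, 1.48-fold and 1.41-fold. In the list of 27 initiation factors EIF3C was the single call (1.36-fold), and it has a near-identical neighbour that may share its reads. The fit of the 4 libraries alone called 20 of these factors higher. Of 26 nucleotide synthesis genes 4 were called higher (19 in the fit of the 4 libraries alone): UCK2, a uridine kinase, at 1.67-fold, IMPDH2, the entry to guanine nucleotides, at 1.54-fold, PPAT at 1.49-fold and ATIC at 1.43-fold.

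Some mitochondrial supply genes were called higher, where 0.845% of all tested genes were. TOMM20, an import receptor, was read at 250 and 242 CPM in DOX and 153 and 159 CPM in UT (1.58-fold, adjusted p = 0.0055), and TIMM13 rose 1.47-fold. With TRAP1 these were 3 of 22 import and chaperone genes, or 13.6% (17 in the fit of the 4 libraries alone). MRPL24 led 2 calls (6.9%) among 29 mitochondrial ribosomal proteins at 1.59-fold (18 in the fit of the 4 libraries alone). None of 30 nuclear subunits of oxidative phosphorylation was called, though all 30 differences were positive (median 0.23), and the fit of the 4 libraries alone called 14. Of the 13 mitochondrially encoded mRNAs MT-ND6 was called, at 239 and 242 CPM in DOX and 136 and 120 CPM in UT (1.88-fold, adjusted p = 0.022). It is the single mRNA on its strand of that genome, so that reads of the opposite strand may enter its count if strand was not used. Of the 8 TRiC subunits, which fold actin and tubulin, CCT3 was called (1.36-fold), and all 8 in the fit of the 4 libraries alone. With library sizes alone in place of composition scaling, the calls were 1 of 30 growth genes, 1 of 40 ribosome biogenesis factors, 0 of 41 ribosomal proteins and 2 of 20 tRNA synthetases. With DESeq2 size factors they were 4, 5, 3 and 4.

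Some mitosis genes were called higher. Of 29 mitosis genes 6 were called higher (28 in the fit of the 4 libraries alone). All 29 had both DOX libraries above both UT libraries, where 33.5% of all tested genes did so. Their summed level was 2243 and 2367 CPM in DOX, against 1608 and 1760 CPM in UT and 2613 and 2833 CPM in UT on day 10. CENPF, a kinetochore protein, was read at 209 and 224 CPM in DOX and 122 and 143 CPM in UT (1.64-fold, adjusted p = 0.013). KIF20A, CDC20 and AURKB, a mitotic motor, an activator of the anaphase complex and a mitotic kinase, rose 1.57-fold, 1.56-fold and 1.46-fold. Of 33 DNA replication genes none was called (median 0.12), and the fit of the 4 libraries alone called 5 higher and 1 lower. The 2 inhibitors of CDK4 and CDK6 that lie side by side on chromosome 9 moved in opposite directions. CDKN2A was read at 0.793 and 1.02 CPM in DOX and 0.358 and 0.403 CPM in UT (2.37-fold higher, adjusted p = 0.046). CDKN2B fell to 1.66 and 1.34 CPM in DOX against 4.56 and 4.19 CPM in UT (2.92-fold, adjusted p = 0.006). BTG2, an antiproliferative p53 target, fell 1.61-fold. These were the 3 calls among 23 CDK inhibitor and p53 target genes (4 higher and 7 lower in the fit of the 4 libraries alone). Of the BCL2 family, BCL2L1, which keeps cells alive, fell to 197 and 201 CPM in DOX against 316 and 320 CPM in UT (1.6-fold, adjusted p = 0.0017), as did the low-level BCL2A1 (2.95-fold), the 2 calls among 15 family members (7 lower in the fit of the 4 libraries alone).

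**Figure D3:**
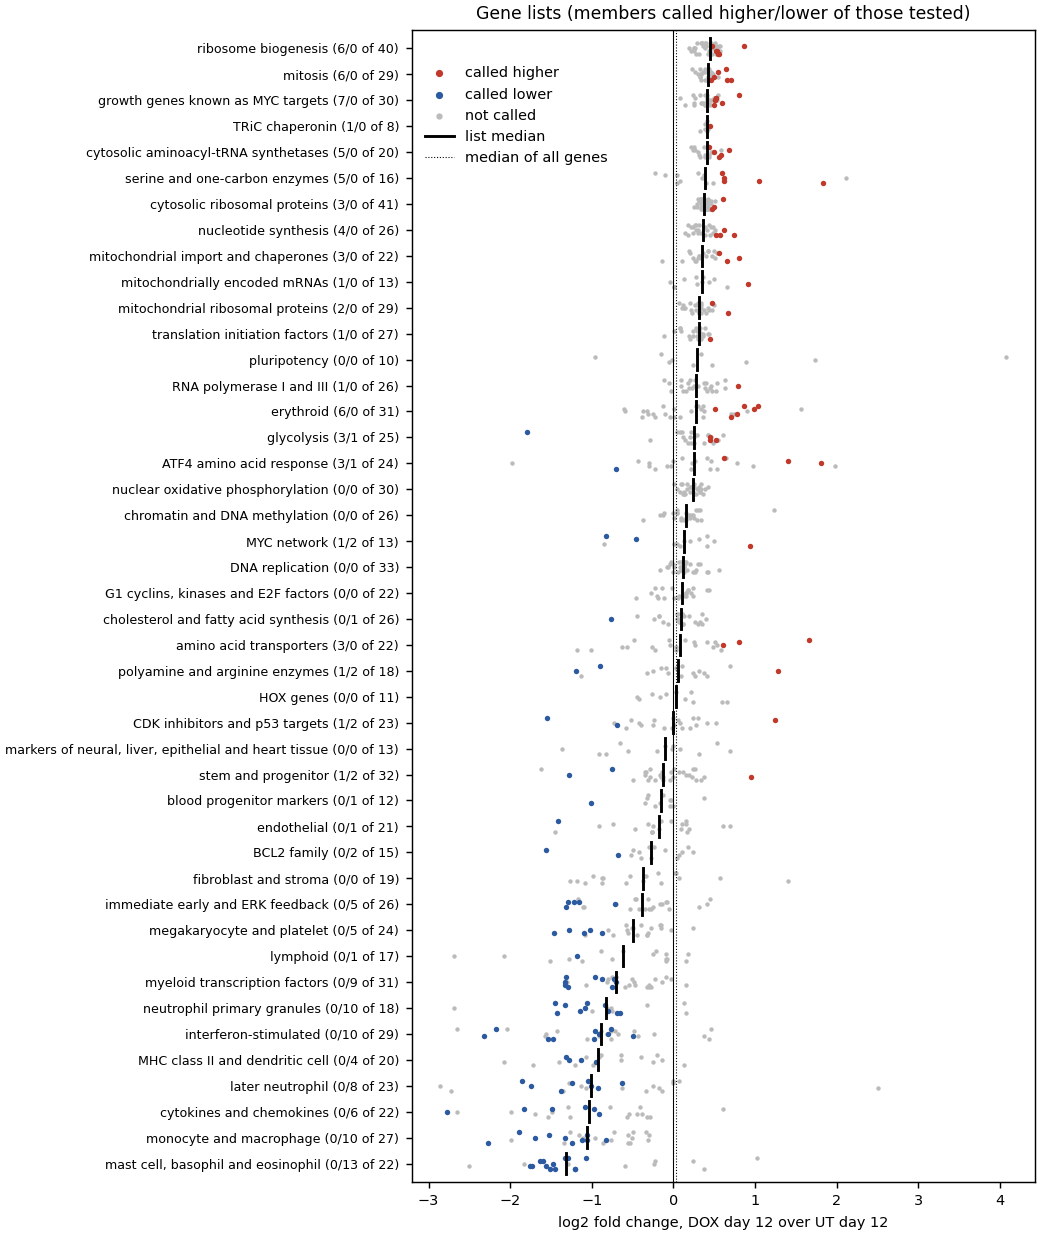
Log2 fold change of DOX over UT on day 12 (horizontal axis) for the tested members of 44 gene lists, ordered by list median (black bars), with called genes in red or blue and counts of members called higher and lower in the labels. Growth, translation and mitosis lists sit in a narrow band right of 0, and lists of mature myeloid cells spread far to the left.

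Many genes of mature myeloid cells fell. Among 22 tested genes of mast cells, basophils and eosinophils 13 fell and none rose (background 2.26% lower), with a median log2 difference of -1.31 (14 lower and 1 higher of 18 in the fit of the 4 libraries alone). The eosinophil granule genes led. PRG2, the major basic protein, was read at 184 and 154 CPM in DOX and 635 and 509 CPM in UT (3.38-fold lower, log2 fold change -1.76, SE 0.20, adjusted p = 0.00014). EPX, eosinophil peroxidase, was read at 58.2 and 39.6 CPM in DOX and 172 and 124 CPM in UT (3.03-fold lower, log2 fold change -1.60, SE 0.23, adjusted p = 0.00094). Both DOX libraries lay above UT day 10, where PRG2 was read at 6.91 and 5.67 CPM and EPX at 2.13 and 2.76 CPM. HPGDS, which makes prostaglandin D2 in mast cells, and SIGLEC6, a receptor of mast cells, fell 3.33-fold and 3.11-fold. HPGDS was low, at 0.389 and 0.45 CPM in DOX and 1.62 and 1.21 CPM in UT. Summed over the list the level was 575.8 and 505.2 CPM in DOX, against 1340 and 1082 CPM in UT and 256.5 and 271.3 CPM in UT on day 10. FCER1A and CMA1, defining genes of mast cells, had 0 counts in all libraries.

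Neutrophil granule and monocyte genes fell too. Of 18 primary granule genes 10 fell and none rose, with a median of -0.82 (14 of 16 lower in the fit of the 4 libraries alone). Their summed level was 1323 and 1095 CPM in DOX, against 2118 and 1766 CPM in UT and 921 and 738.1 CPM in UT on day 10. MS4A3, a membrane protein of granulocyte and monocyte progenitors, was read at 12.8 and 10.5 CPM in DOX and 35.1 and 27.9 CPM in UT (2.70-fold lower, log2 fold change -1.43, SE 0.18, adjusted p = 0.00037). MPO, myeloperoxidase, was read at 788 and 626 CPM in DOX and 1260 and 1030 CPM in UT (1.62-fold lower, adjusted p = 0.02). RNASE2 and RNASE3, granule ribonucleases with closely similar sequences that may share reads, stand in both this list and the eosinophil list and fell 2.51-fold and 2.74-fold. RNASE3 was low, at 0.733 and 0.566 CPM in DOX and 1.87 and 1.69 CPM in UT. Of 23 later neutrophil genes 8 fell and none rose (12 of 15 lower in the fit of the 4 libraries alone). S100A8, a subunit of calprotectin, was read at 6.58 and 5.66 CPM in DOX and 23.6 and 17.4 CPM in UT (3.35-fold lower, log2 fold change -1.75, SE 0.22, adjusted p = 0.00044). FPR1, a receptor for bacterial peptides, MMP9, gelatinase B, and NCF1, an NADPH oxidase subunit with near-identical pseudogenes, fell 3.62-fold, 2.59-fold and 2.37-fold. FPR1 was low, at 0.314 and 0.373 CPM in DOX and 1.41 and 1.1 CPM in UT.

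All 27 tested monocyte and macrophage genes had both DOX libraries below both UT libraries, where 28.3% of all tested genes did so, and 10 fell (24 in the fit of the 4 libraries alone). FCN1, a lectin of monocytes, was read at 9.54 and 6.98 CPM in DOX and 27.2 and 20.5 CPM in UT (2.89-fold lower, adjusted p = 0.001). VCAN, a matrix proteoglycan of monocytes, was read at 2.53 and 2.20 CPM in DOX and 9.39 and 5.93 CPM in UT (3.24-fold lower, adjusted p = 0.028). FCGR3A, an Fc receptor with a near-identical paralogue, and C1QB, a complement chain, fell 4.84-fold and 3.70-fold at low levels, both under 2 CPM in UT. Their summed list level was 416.5 and 418.5 CPM in DOX against 655.9 and 635.4 CPM in UT. Of 20 genes of MHC class II and dendritic cells 4 fell (11 of 18 in the fit of the 4 libraries alone). HLA-DRA was read at 13.3 and 12.3 CPM in DOX and 32.3 and 29.7 CPM in UT (2.43-fold lower, adjusted p = 0.00082), and HLA-DRB1, CD1C and CD74 fell 2.48-fold, 2.19-fold and 1.92-fold. In the lymphoid list 1 of 17 fell, IL7R, the interleukin-7 receptor, by 2.26-fold (5 lower in the fit of the 4 libraries alone).

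Transcription factors of myeloid cells fell too: 9 of 31 were called lower and none higher (23 lower and none higher in the fit of the 4 libraries alone). MAF was read at 4.34 and 4.08 CPM in DOX and 10.6 and 10.6 CPM in UT (2.51-fold lower, adjusted p = 0.0014). EGR2 and RUNX2 fell 2.44-fold and 2.49-fold. RUNX2 was low, at 0.254 and 0.257 CPM in DOX and 0.585 and 0.693 CPM in UT (adjusted p = 0.0497). GFI1, a repressor needed for neutrophils, fell 1.69-fold, and 1 of 32 members of the stem and progenitor list rose and 2 fell (4 higher and 7 lower of 31 in the fit of the 4 libraries alone). The one that rose was MLLT3, a cofactor of stem cell maintenance, at 37.0 and 39.9 CPM in DOX and 19.0 and 20.8 CPM in UT (1.93-fold, adjusted p = 0.0037). DUSP6, a phosphatase induced by ERK signalling that shuts ERK off, was among the most certain falls, at 18.0 and 15.9 CPM in DOX and 41.9 and 36.9 CPM in UT (2.33-fold, log2 fold change -1.22, SE 0.13, adjusted p = 0.00012). With it 5 of 26 immediate early and ERK feedback genes fell (13 lower and 1 higher in the fit of the 4 libraries alone), IER3 2.5-fold and FOSL2 2.23-fold among them.

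The 2 largest falls at a mean log2 CPM of at least 1 were interferon-stimulated genes. XAF1, an interferon-induced partner of the XIAP protein, was read at 1.12 and 0.81 CPM in DOX and 4.92 and 4.70 CPM in UT (4.98-fold lower, log2 fold change -2.32, SE 0.53, adjusted p = 0.022). MX1, an antiviral GTPase, was read at 4.85 and 3.83 CPM in DOX and 22.9 and 16.2 CPM in UT (4.50-fold lower, log2 fold change -2.17, SE 0.37, adjusted p = 0.0032). In UT on day 10 the levels were 0.433 and 0.328 CPM for XAF1 and 3.10 and 2.68 CPM for MX1. Of 29 interferon-stimulated genes 10 fell and none rose (23 called lower and 3 higher in the fit of the 4 libraries alone). Both DOX libraries lay below both UT libraries for 26 of the 29, where 28.3% of all tested genes did so. IFIT1 and USP18 fell 2.90-fold and 2.77-fold. Cytokine and chemokine genes gave 6 falls and no rise among 22 (17 lower and 1 higher in the fit of the 4 libraries alone). CXCL8, interleukin-8, which draws neutrophils, was read at 11.1 and 8.70 CPM in DOX and 33.1 and 22.5 CPM in UT (2.80-fold lower, adjusted p = 0.00095), and CCL2, which draws monocytes, at 1.6 and 1.30 CPM in DOX and 6.56 and 3.79 CPM in UT (3.56-fold lower, adjusted p = 0.0036). CXCL1 fell 2.12-fold.

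Further named genes fell, most of them outside the lists. PLA2G7, the enzyme that degrades platelet-activating factor, was read at 3.63 and 3.16 CPM in DOX and 10.2 and 8.54 CPM in UT (2.76-fold lower, log2 fold change -1.46, SE 0.16, adjusted p = 0.00012). CR1, a complement receptor, was read at 3.35 and 4.66 CPM in DOX and 14.6 and 12.2 CPM in UT (3.34-fold lower, adjusted p = 0.00037). GPR34, a lysophosphatidylserine receptor, SERPINB2, an inhibitor of urokinase, and GPX3, a secreted peroxidase, fell 3.39-fold, 3.42-fold and 3.26-fold. AFAP1L2, an adaptor of SRC signalling, fell 3.93-fold, and TMIGD3, which shares its locus with the adenosine receptor ADORA3, fell 2.45-fold. INSIG1, the sterol sensor that holds back cholesterol synthesis, fell to 249 and 240 CPM in DOX against 417 and 414 CPM in UT (1.70-fold, adjusted p = 0.0085), and it was the single call among 26 lipid synthesis genes (6 higher and 5 lower in the fit of the 4 libraries alone). HK3, the myeloid hexokinase, fell 3.46-fold, while 3 of 25 glycolysis genes rose (13 higher and 2 lower in the fit of the 4 libraries alone). HK3 was low, at 0.344 and 0.283 CPM in DOX and 1.36 and 0.838 CPM in UT.

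Called platelet genes and called red cell genes differed in direction on day 12, while the red cell list as a whole was mixed. Of 24 megakaryocyte and platelet genes 5 fell and none rose (21 called lower in the fit of the 4 libraries alone). Both DOX libraries lay below both UT libraries for 21 of the 24, where 28.3% of all tested genes did so. PPBP, a platelet chemokine, was read at 447 and 431 CPM in DOX and 1060 and 1070 CPM in UT (2.42-fold lower, log2 fold change -1.28, SE 0.20, adjusted p = 0.0018). F13A1, the A chain of clotting factor XIII, was read at 74.4 and 59.1 CPM in DOX and 199 and 169 CPM in UT (2.76-fold lower, log2 fold change -1.46, SE 0.16, adjusted p = 0.00013). CLEC1B and TREML1, platelet receptors, fell 2.03-fold and 2.13-fold. In UT on day 10 PPBP was read at 161 and 154 CPM and F13A1 at 17.8 and 15.2 CPM, below DOX day 12. The platelet list summed to 10600 and 11680 CPM in DOX, 14830 and 16170 CPM in UT and 10960 and 10690 CPM in UT on day 10. Of 31 erythroid genes 6 rose and none fell (12 higher and 5 lower in the fit of the 4 libraries alone), and 11 differences were negative. Both DOX libraries lay above both UT libraries for 15 of the genes and below for 8. Summed over the list the level was 3170 and 3559 CPM in DOX and 3401 and 3698 CPM in UT, with overlap. HBG2, the most abundant member, was not called (log2 fold change -0.097). FECH, which inserts iron into haem, was read at 55.6 and 54.8 CPM in DOX and 30.9 and 29.8 CPM in UT (1.82-fold, adjusted p = 0.0027). KLF1, the erythroid master factor, was read at 21.7 and 28.2 CPM in DOX and 12.9 and 16.2 CPM in UT (1.71-fold, adjusted p = 0.037). GYPB, a glycophorin with a near-identical paralogue, and SPTB, erythroid spectrin, were 2.05-fold and 1.98-fold higher in DOX. GYPB was read at 25.2 and 35.9 CPM in DOX, 13.7 and 16.1 CPM in UT and 40.5 and 48.4 CPM in UT on day 10. For SPTB, FECH and KLF1 UT day 10 lay between UT day 12 and DOX day 12.

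Markers of cells that could be carried along were examined as well. Among 21 endothelial genes LYVE1, a hyaluronan receptor also carried by macrophages, was the single call, at 40.6 and 37.4 CPM in DOX and 112 and 96.4 CPM in UT (2.67-fold lower, adjusted p = 0.0039). The fit of the 4 libraries alone called 9 of 19 endothelial genes lower. The summed endothelial level was 889.3 and 939.5 CPM in DOX and 1253 and 1250 CPM in UT. None of 19 fibroblast genes, 11 HOX genes and 10 pluripotency genes was called. The fit of the 4 libraries alone called 5 of 18 fibroblast genes lower, 1 of 10 HOX genes higher and 3 of 7 pluripotency genes higher. The part of such cells in the other results was not tested.

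The day 12 calls were followed to later days, which share no library with day 12. Of the 170 genes higher on day 12, 130 (76.5%) were also called higher on day 14, where 15.3% of all tested genes were, and 87 on all 4 later days. Of the 455 genes lower on day 12, 384 (84.4%) were called lower on day 14, where 11.7% of all tested genes were, and 204 on all 4 later days. The shares of all tested genes called on all 4 later days were not counted and cannot exceed those of day 14. On days 16, 18 and 20 the shares of all tested genes called were 21.2%, 19.8% and 15.9% higher and 18.7%, 16% and 11.9% lower. The 130 and 384 genes made up 4.24% of the 3070 genes higher and 16.3% of the 2352 genes lower on day 14. Opposite calls numbered 1 gene in each direction on day 14. On days 16, 18 and 20, 33, 73 and 65 of the 455 were called higher in DOX, and 2, 3 and 0 of the 170 lower. On at least 1 later day these were 91 of the 455 and 4 of the 170. The shares of all tested genes called on at least 1 later day were not counted. They are at least the 21.2% higher and 18.7% lower of day 16, so the 91 are not read as an excess. The mitochondrial share of counts ran from 19.5% to 58.8% in DOX and from 53.5% to 72.9% in UT on days 16 to 20, and its part in those comparisons was not tested.

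**Figure D4:**
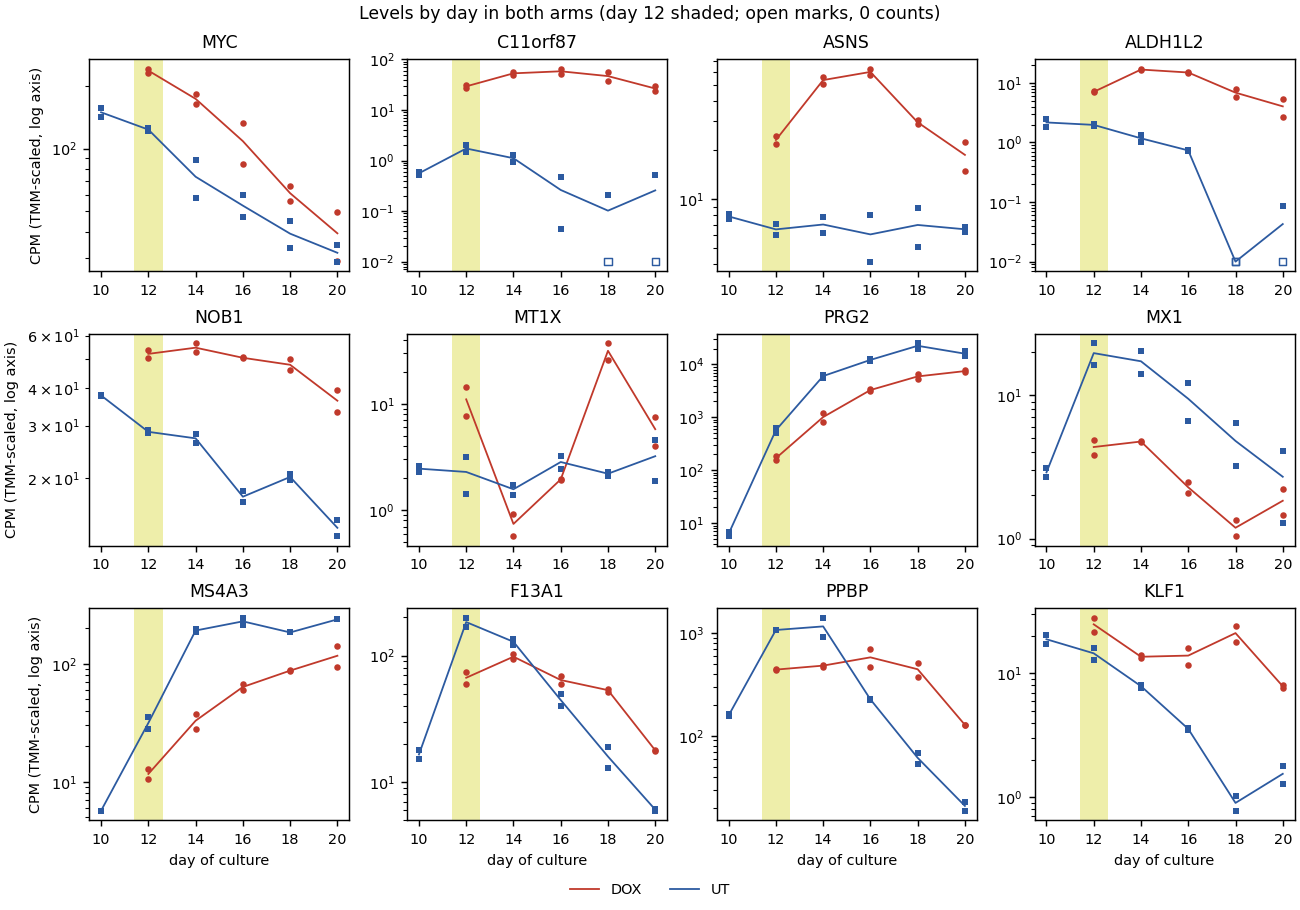
Level in CPM (log axis) by day of culture in DOX (red circles) and UT (blue squares) for 12 named genes, one mark per library and a line through the means, with day 12 shaded. C11orf87, ASNS and NOB1 stay higher in DOX on each day, PRG2 and MS4A3 stay lower, and the lines of F13A1 and PPBP cross after day 14.

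The difference of the effects was tested directly. Against day 14, 595 of 20115 genes (2.96%) had a different DOX effect on day 12, 234 a higher one and 361 a lower one. Against the average of days 14 to 20 there were 2786 (13.9%), 1138 higher and 1648 lower. The MYC effect itself differed from neither, by -0.30 log2 units from day 14 (adjusted p = 0.757) and by 0.13 from the later average (adjusted p = 0.838). For 4 named metabolic and growth genes the day 12 effect was the smaller one. ALDH1L2, PSAT1, IARS1 and TRAP1 had log2 fold changes of 1.84, 1.05, 0.69 and 0.80 on day 12 and 3.83, 2.10, 1.58 and 1.40 on day 14, and differences between the days of -1.99, -1.06, -0.89 and -0.59 (adjusted p = 0.016, 0.033, 0.0043 and 0.031). By list, 2 of 30 growth genes and 3 of 16 serine and one-carbon enzymes had a lower effect on day 12 than on day 14 and none a higher one, while 8 of 41 cytosolic ribosomal proteins had a higher effect and none a lower one. Falls were smaller on day 12 as well for MS4A3, by 1.11 (adjusted p = 0.025), and DUSP6, by 0.89 (adjusted p = 0.018).

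A few genes went further on day 12 than on day 14. MT1X was called higher on day 12 but had a log2 fold change of -1.08 on day 14, a difference of 3.34 between the effects (adjusted p = 0.0086). Its mean level was 11 CPM in DOX and 2.29 CPM in UT on day 12, against 0.740 CPM in DOX and 1.57 CPM in UT on day 14. MT1X was again far higher in DOX on day 18, at 26 and 37.2 CPM against 2.1 and 2.3 CPM in UT. On day 16 it stood at 1.95 and 1.94 CPM in DOX and 3.24 and 2.43 CPM in UT. EIF4EBP3, a brake on translation initiation, averaged 3.49 CPM in DOX and 1.5 CPM in UT on day 12, but 5.04 CPM in DOX and 6.94 CPM in UT on day 14 (difference of effects 1.68, adjusted p = 0.029). Its gene is also read as part of a longer fusion transcript, so its count is uncertain. F13A1 fell more on day 12 than on day 14, with effects of -1.46 and -0.39 (difference -1.07, adjusted p = 0.019). Among the 5 lowest differences between days 12 and 14 were the read-through genes BLOC1S5-TXNDC5, COMMD3-BMI1 and LY75-CD302. All 5 had 0 counts in at least 1 group of libraries, and no fold is given for them.

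PPBP and CLEC1B were lower in DOX on days 12 and 14 and higher from day 16 on. PPBP had log2 fold changes of -1.28, -1.26, 1.36, 2.86 and 2.61 on days 12, 14, 16, 18 and 20, so that its day 12 effect lay 2.67 below the average of the later days (adjusted p = 7.2e-07). CLEC1B, with -1.02 on day 12 and 2.68 on day 20, lay 2.34 below (adjusted p = 3e-07). Of the 24 platelet genes 23 had a lower effect on day 12 than later, and of 31 erythroid genes 17. Of all 20115 genes tested 1648 had a lower effect on day 12 than later and 1138 a higher one. All 13 mitochondrial mRNAs had a higher effect on day 12 than later. One of them, MT-CO1, averaged 12701 CPM in DOX and 13017 CPM in UT on day 12 but 132080 CPM in DOX and 431270 CPM in UT on day 20. C11orf87 rose less on day 12 than later (3.04 log2 units below the later average, adjusted p = 0.00022), its DOX mean being 29.3 CPM on day 12 and 58.2 CPM on day 16.

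**Figure D5:**
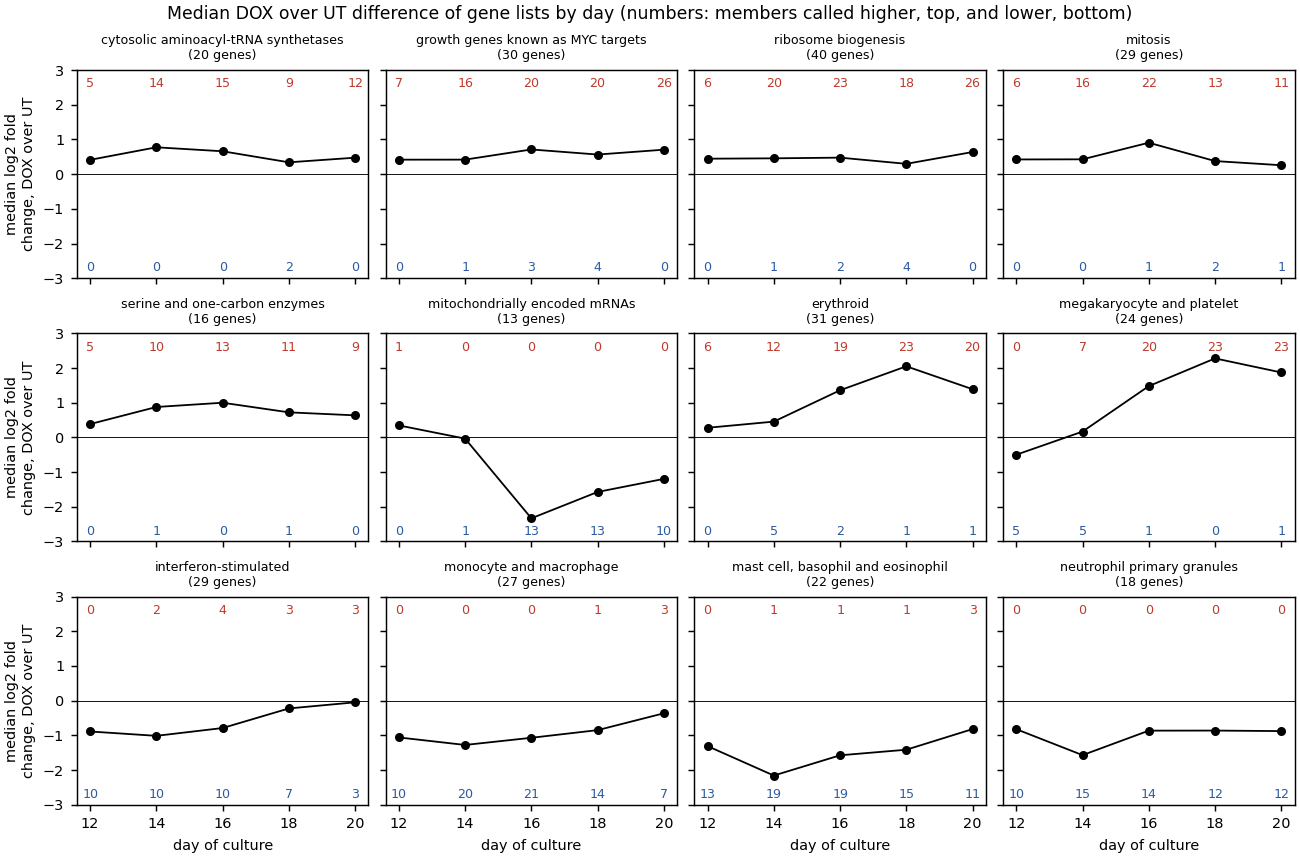
Median log2 fold change of DOX over UT (vertical axis) by day for 12 gene lists, with the number of members called higher (red, top) and lower (blue, bottom) on each day. The list of growth genes stays between 0.42 and 0.71, the monocyte, mast cell and primary granule lists are below 0 on every day, and the platelet list is at -0.50 on day 12 and at 2.28 on day 18.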

How the data were processed

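RNA was measured by bulk sequencing of polyA-selected libraries, 2 for each of 11 combinations of arm and day. The authors deposited estimated counts per gene made with Salmon after Trim Galore 0.6.5 and STAR on hg38, per the submitters' processing notes, which give no version for STAR or Salmon; strand handling is not given in the sources used here. Of the deposited values 88.3% were whole numbers, and all were rounded to whole counts. Genes passed edgeR's filterByExpr with a minimum count of 10. TMM factors and a quasi-likelihood fit of all 22 libraries (edgeR 4.0.16, limma 3.58.1, R 4.3.3, 11 residual degrees of freedom) gave the day 12 contrast and the 2 contrasts between days, with p-values adjusted by Benjamini-Hochberg over all 20115 genes. Standard errors were derived from the log2 fold change and its F statistic. CPM values carry TMM scaling and are not divided by gene length, so levels are not compared between genes. Positions are those of GENCODE 29 on GRCh38, in which 58020 of 60240 identifiers were found. Genes were named by a rule: the 12 highest and 12 lowest called fold changes at a mean log2 CPM of at least 1, the 6 smallest adjusted p in each direction, up to 4 called members of each of 44 lists with its most abundant member, and the 5 highest and lowest of each test between days. The members and lists were chosen with earlier results of these data known. On simulated counts for 19823 genes the day 12 contrast recovered 12%, 70%, 86% and 84% of genes changed 1.5-fold, 2-fold, 3-fold and 4-fold, with 5 of 19623 unchanged genes called. These counts were simulated with the spread estimated from all 22 libraries. Alternatives were other scalings and filters, limma-voom, DESeq2 1.42.0, a replicate block, removal of mitochondrially encoded genes, smaller sets of libraries and leaving out each library. Figures were drawn with matplotlib 3.10.9.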

Additional observations from a re-analysis of the deposited data

Results flagged for a closer look

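The DOX effect on day 12 differed by test from that on day 14 for 595 genes and from the average of days 14 to 20 for 2786 genes. On days 16 to 20 the mitochondrial share of counts was lower in every DOX library than in every UT library of the same day, reaching 58.8% in DOX and 72.9% in UT, and its part in these differences was not tested.

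Day 12 minus day 14 gave positive log2 differences of 3.34 for MT1X, 1.80 for HSH2D, 1.68 for EIF4EBP3, 1.68 for C5AR2, 1.6 for SAPCD1, 1.11 for MS4A3 and 0.889 for DUSP6. HSH2D, an adaptor of blood cells, averaged 1.52 CPM in DOX and 3.48 CPM in UT on day 12, and 3.11 CPM in DOX and 24.9 CPM in UT on day 14. Negative differences were -1.99 for ALDH1L2, -1.54 for SPTB, -1.07 for F13A1, -1.06 for PSAT1, -0.892 for IARS1 and -0.594 for TRAP1.

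Day 12 minus the average of days 14 to 20 gave 2.99 for CACNG8, 2.31 for ANKRD36C, 2.01 for ANKRD36, 2.01 for NBPF19, 1.80 for MT-CO1, 1.56 for EIF4EBP3, 1.49 for MT1X, 1.49 for MT-ND6, 1.32 for C5AR2, 1.02 for HSH2D and 0.548 for DUSP6. ANKRD36, ANKRD36C and NBPF19 belong to families of near-identical genes, and their counts are uncertain. CACNG8 averaged 4.58 CPM in DOX and 3.71 CPM in UT on day 12, and 1.72 CPM in DOX and 23.0 CPM in UT on day 20.

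Negative differences from the later average covered platelet and red cell genes, at -2.67 for PPBP, -2.41 for SPTB, -2.40 for GYPB, -2.34 for CLEC1B, -2.32 for F13A1 and -1.63 for KLF1. LYVE1 had -2.23, C11orf87 -3.04, PSAT1 -1.30, TRAP1 -0.701 and IARS1 -0.663.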

How the results depend on the processing

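The number of genes called on day 12 moved by over 1.5 times with no filter, another tool, the block and other sets of libraries, and stayed within that with DESeq2 size factors (642), at least 1 CPM in 2 libraries (713) and mitochondrially encoded genes removed (607). None of the 117 fold changes given changed sign under any alternative run. Against 625 calls (170 higher), library sizes alone gave 63 higher of 472, no filter 940 (294 higher), limma-voom 1530 (642 higher, 888 lower), DESeq2 1408 (435 higher, 973 lower), the 4 libraries alone 4742 (2230 higher, 2512 lower), and the libraries without days 16 to 20, chosen after seeing the data, 2296 (982 higher, 1314 lower). At least 2-fold, 255 were called (36 higher, 219 lower), and at an adjusted p under 0.01, 182 (32 higher, 150 lower). Leaving out each library gave 56 to 217 calls, 7 to 29 higher and 41 to 188 lower. The fit then has 1 library in an arm, assumed to vary like the other groups. MYC was 0.90 with DESeq2 size factors (adjusted p = 0.0505), 0.88 with library sizes alone (adjusted p = 0.111) and 0.91 to 0.98 with a library left out (adjusted p = 0.228 to 0.291), none past the threshold. The cause of these shifts was not tested.

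Against 595 calls for day 12 minus day 14, library sizes alone gave 239, no filter 1312, limma-voom 2122, DESeq2 2012, only the 8 libraries of both days 2623, no days 16 to 20 3198, and leaving out 1 library 28 to 722. Against 2786 calls for the later average, library sizes alone gave 9330, and leaving out 1 library 1248 to 3371.

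The labels do not say whether replicate numbers pair the samples, and the main fit did not pair them. Deviations of the arms on day 12 correlated at 0.379, towards the upper end of the values of all pairs of groups. Over 55 pairs of groups these ran from -0.0189 to 0.422, with 25 under 0.1. With the replicate block 950 genes were called on day 12 (313 higher), 1193 for day 12 minus day 14, and MYC was 0.94 (adjusted p = 0.0037). Of the 116 called genes with a printed fold change, 35 lost their call with library sizes alone, 9 with DESeq2 size factors, 6 with limma-voom and 5 with no filter. On simulated counts 12% of 1.5-fold changes were recovered, so many changes of that size would go uncalled in the fit of all 22 libraries. Those counts were simulated with the spread of all 22 libraries (common biological coefficient of variation 0.184, against 0.0749 for the 4 libraries of day 12 alone). Recovery at the smaller spread was not tested.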
